A study of Mus musculus with 13 samples.

Results

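The genes described here are 10 genes of the contractile actin cytoskeleton: the smooth muscle actin Acta2, the actin-binding transgelin Tagln, the calponins Cnn1, Cnn2 and Cnn3, the myosin light chain Myl9, the tropomyosins Tpm1 and Tpm2, the non-muscle myosin heavy chain Myh9 and the filamin Flna. They were taken by name, as actin-binding, calponin, tropomyosin and myosin genes linked to YAP and to serum response factor (SRF), and all 10 were found among the 48795 genes of the deposited table. Bulk mRNA was sequenced from the right brain hemisphere, without olfactory bulb and cerebellum, of 13 mice at postnatal day 11, all on a C57BL/6J strain background. The transgene, YAP5SAnls, encodes a YAP1 that carries phosphorylation-site mutations and a nuclear localisation signal, and it stays silent behind a floxed stop cassette until Cre acts. In the 5 nlsYAP5SA mice (NexCre +/- YAP5SAnls +/-), Cre came from the Nex (Neurod6) locus, which is active in precursors of the pyramidal neuron lineage, so the transgene was switched on in a fraction of the cells of the hemisphere. The 5 control mice (NexCre -/- YAP5SAnls +/-) held the silent transgene and no Cre; these 10 were littermates of more than 1 mating, and which litter each came from is not recorded. The 3 C57BL/6 mice were wild type (WT) and not littermates of the other groups. Estimated counts summed to between 20871566 and 25524349 per mouse, and levels are given as CPM, counts scaled with TMM factors to the same library size in every mouse.

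Contractile actin bundles are built from actin filaments that are lined by tropomyosins, cross-linked by filamins and pulled by myosin II, whose light chain is phosphorylated to start contraction, while calponins and transgelin bind along the filaments. Many of these genes are transcribed through SRF, whose cofactors of the MRTF family are held back by unpolymerised actin, and YAP1, which works through TEAD transcription factors, responds to the same tension in the actin network. In brain, smooth muscle actin, transgelin and calponin 1 are best known from the muscle cells of vessel walls, and Cnn3, Tpm1, Myh9 and Flna are used more widely.

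Neurod6 and Yap1 were read first as a check of the labels. Neurod6 stood at 92.3, 110, 93.9, 98.5 and 91.5 CPM in control replicates 1 to 5, at 55.2, 38.9, 48.1, 56.8 and 47.2 CPM in nlsYAP5SA replicates 1 to 5 and at 103, 92.5 and 88.0 CPM in C57BL/6 replicates 1 to 3. Every mouse labelled nlsYAP5SA was thus below every other mouse (log2 fold change against control -0.98, SE 0.09, adjusted p = 2.7e-05, edgeR's quasi-likelihood test, Benjamini-Hochberg adjustment). Yap1 stood at 20.3, 20.0, 20.7, 20.2 and 22.3 CPM in the controls, at 24.3, 26.6, 22.6, 24.3 and 23.2 CPM in nlsYAP5SA and at 21.6, 19.4 and 20.6 CPM in C57BL/6. The nlsYAP5SA mice were all above the other mice by a narrow margin (log2 fold change against control 0.23, SE 0.06, adjusted p = 0.0361, edgeR's quasi-likelihood test, Benjamini-Hochberg adjustment). That call held in 5 of 19 alternatives (adjusted p 0.0216 to 0.535) and was lost, among others, without control replicate 1, 2, 3 or 4 or nlsYAP5SA replicate 1, 2, 4 or 5 (0.0559 to 0.0846, edgeR's quasi-likelihood test, Benjamini-Hochberg adjustment), and whether transgene reads were counted under Yap1 was not tested. The summed level of 4 Y-linked genes was 91.9 to 145 CPM in all 5 controls, nlsYAP5SA replicates 3 and 4 and C57BL/6 replicates 1 and 3, called the mice with Y-linked reads below (above 1 CPM), and 0 to 0.0958 CPM in the other 4 mice. Y-linked reads were thus unevenly spread over the groups, and calls against control were repeated with a Y-linked covariate and over the mice with Y-linked reads. Yap1 lost its call in both (adjusted p = 0.372 and 0.535, edgeR's quasi-likelihood test, Benjamini-Hochberg adjustment).

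Against control, 6 of the 10 genes were called higher in nlsYAP5SA at an adjusted p of 0.05 or less, while 7.36% of the 16315 genes tested were called higher. The 6 were Acta2, Tagln, Cnn1, Cnn2, Cnn3 and Tpm1; in tissue of many cell types, more cells of a type and more RNA per cell cannot be told apart. None of the 10 was called lower by edgeR's quasi-likelihood test, where 3.44% of all genes tested were; 1 had unadjusted p ≤ 0.05 in that direction, and DESeq2's Wald test called 0 lower. The 561 of all genes called lower were 315 without control replicate 4 and 351, 340 and 296 without nlsYAP5SA replicate 1, 2 and 5. With the Y-linked covariate 475 of all genes were called higher and 64 lower, and 5 of the 10 higher. Over the mice with Y-linked reads 308 of all genes were called higher and 26 lower, and 4 of the 10 higher. In 5 of the 10 every nlsYAP5SA mouse was above every control, which held for 6.5% of all genes tested. The median log2 fold change was 0.47 over the 10 genes and -0.01 over all genes tested. The 10 genes were chosen with earlier results of these data known. Their shares beside those of all genes, here and against C57BL/6, are therefore descriptions that depend on that choice.

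**Figure D1:**
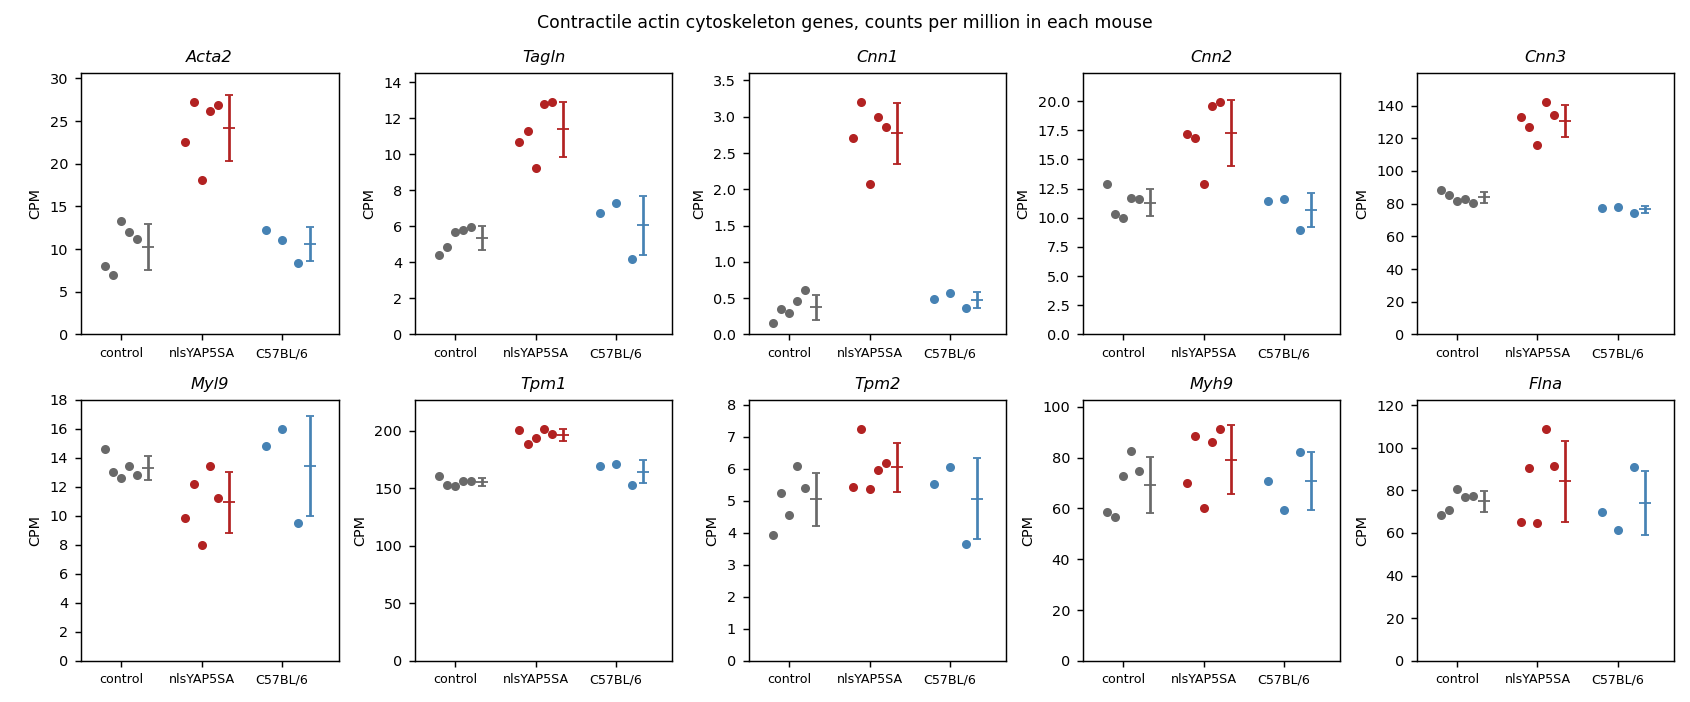
Level of each of the 10 genes in CPM (vertical axes, from 0) in the 5 control, 5 nlsYAP5SA and 3 C57BL/6 mice; points are mice in replicate order and bars are the mean and SD. Acta2, Tagln, Cnn1, Cnn3 and Tpm1 show every nlsYAP5SA mouse above every control, and the groups overlap in the other 5 panels.

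Acta2 (ENSMUSG00000035783, chr19:34241090-34255590 on GRCm38), the actin of smooth muscle and of myofibroblasts, stood at 8.02, 6.97, 13.3, 12 and 11.2 CPM in control replicates 1 to 5. In nlsYAP5SA replicates 1 to 5 it stood at 22.6, 27.2, 18.1, 26.2 and 26.9 CPM. C57BL/6 replicates 1 to 3 held 12.2, 11.1 and 8.36 CPM. Control replicates 1 and 2 and C57BL/6 replicate 3 were low and nlsYAP5SA replicate 3 was the lowest of its group, yet no nlsYAP5SA mouse came down to the range of the other groups. The mean was 10.3 ± 2.70 CPM in control and 24.2 ± 3.88 CPM in nlsYAP5SA (SD, n = 5 each); the log2 fold change was 1.23 (SE 0.17, adjusted p = 5.1e-04, edgeR's quasi-likelihood test, Benjamini-Hochberg adjustment). In the fit of the 5 controls and the 2 nlsYAP5SA mice that had Y-linked reads, the log2 fold change was 1.10 (adjusted p = 0.0539, edgeR's quasi-likelihood test, Benjamini-Hochberg adjustment), at the upper end of the range from 4.7e-10 over the alternatives. Acta2 counts were not whole numbers in 10 of 13 mice (tolerance 1e-06); RSEM divides reads that fit several genes among them.

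Tagln (ENSMUSG00000032085, chr9:45929619-45936058), the transgelin that lies along actin filaments in smooth muscle, stood at 4.42, 4.85, 5.67, 5.79 and 5.95 CPM in the controls. The nlsYAP5SA mice held 10.7, 11.3, 9.27, 12.8 and 12.9 CPM. C57BL/6 mice held 6.73, 7.28 and 4.20 CPM. C57BL/6 replicate 3 was the lowest of the 13 mice, and nlsYAP5SA replicate 3, again lowest of its group, was still above every control and C57BL/6 mouse. The mean went from 5.34 ± 0.667 CPM to 11.4 ± 1.51 CPM (SD, n = 5 each); the log2 fold change was 1.09 (SE 0.11, adjusted p = 6.3e-05, edgeR's quasi-likelihood test, Benjamini-Hochberg adjustment). Tagln shares 108 exon bases with Pcsk7 on the opposite strand, and the strand setting of the counting was not given in the sources used here, so reads of that stretch cannot be told apart. Pcsk7 itself had a log2 fold change of 0.13 (SE 0.08).

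Among the calponins, which bind actin and, in smooth muscle, damp the myosin motor, Cnn1 had the largest fold change of the 10 genes against control and the lowest level. Cnn1 (ENSMUSG00000001349, chr9:22099216-22109630) stood at 0.164, 0.352, 0.292, 0.462 and 0.614 CPM in the controls, which is 4 to 13 estimated counts per mouse. The nlsYAP5SA mice held 2.71, 3.20, 2.08, 3 and 2.86 CPM, or 48 to 69 counts. C57BL/6 mice held 0.493, 0.575 and 0.363 CPM, or 9 to 12 counts. All 5 nlsYAP5SA mice lay far outside the spread of the other groups, although the control values rest on few counts. The mean was 0.377 ± 0.171 CPM in control and 2.77 ± 0.426 CPM in nlsYAP5SA (SD, n = 5 each); the log2 fold change was 2.88 (SE 0.26, 95% interval 2.31 to 3.44, adjusted p = 2.0e-05, edgeR's quasi-likelihood test, Benjamini-Hochberg adjustment).

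Cnn3 (ENSMUSG00000053931, chr3:121426497-121458207), the calponin of non-muscle cells and the one most abundant per length here, stood at 88.5, 85.5, 81.6, 82.9 and 80.5 CPM in the controls. The nlsYAP5SA mice held 133, 127, 116, 142 and 134 CPM. C57BL/6 mice held 77.4, 78.2 and 74.3 CPM. The 3 groups did not overlap, with C57BL/6 lowest and nlsYAP5SA highest. The mean was 83.8 ± 3.22 CPM in control and 130.3 ± 9.61 CPM in nlsYAP5SA (SD, n = 5 each); the log2 fold change was 0.63 (SE 0.06, adjusted p = 2.4e-05, edgeR's quasi-likelihood test, Benjamini-Hochberg adjustment). Cnn3 shares 538 exon bases with the antisense gene Gm42928, which averaged 11.2 counts against 2278 for Cnn3 and had a log2 fold change of 1.38 (SE 0.29), and Cnn3 counts were not whole in 13 of 13 mice.

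Cnn2 (ENSMUSG00000004665, chr10:79988584-79996062), a calponin of smooth muscle and of blood-derived cells, stood at 12.9, 10.3, 10, 11.7 and 11.6 CPM in the controls. The nlsYAP5SA mice held 17.2, 16.8, 12.9, 19.6 and 19.9 CPM. C57BL/6 mice held 11.4, 11.6 and 8.96 CPM. Control and nlsYAP5SA touched at nlsYAP5SA replicate 3 and control replicate 1, and the other 4 nlsYAP5SA mice were above all controls. The mean was 11.3 ± 1.16 CPM in control and 17.3 ± 2.82 CPM in nlsYAP5SA (SD, n = 5 each); the log2 fold change was 0.61 (SE 0.12, adjusted p = 0.00548, edgeR's quasi-likelihood test, Benjamini-Hochberg adjustment). With a covariate for Y-linked genes the log2 fold change was 0.52 and the adjusted p was 0.113, and over the mice with Y-linked reads they were 0.52 and 0.22 (edgeR's quasi-likelihood test, Benjamini-Hochberg adjustment); over the 19 alternatives the adjusted p ran from 7.4e-05 to 0.22.

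The tropomyosins are coiled rods that lie along the actin filament and set which proteins may bind it. Tpm1 (ENSMUSG00000032366, chr9:67022590-67049406) stood at 160.4, 153, 152, 156 and 156 CPM in the controls. The nlsYAP5SA mice held 201, 189, 194, 202 and 197 CPM. C57BL/6 mice held 169.5, 171 and 153 CPM. The change was small but exceeded the spread, since the SD was 3.20 CPM in control and 5.43 CPM in nlsYAP5SA and the groups did not overlap. The log2 fold change was 0.33 (SE 0.04, adjusted p = 3.4e-04, edgeR's quasi-likelihood test, Benjamini-Hochberg adjustment). Tpm2 (ENSMUSG00000028464, chr4:43514711-43523765), the partner more typical of muscle, stood at 3.93, 5.25, 4.54, 6.09 and 5.38 CPM in the controls and at 5.42, 7.25, 5.37, 5.96 and 6.18 CPM in nlsYAP5SA. In C57BL/6 it stood at 5.51, 6.04 and 3.63 CPM. The groups overlapped and Tpm2 was not called (log2 fold change 0.26, SE 0.13, 95% interval -0.02 to 0.54, adjusted p = 0.238, edgeR's quasi-likelihood test, Benjamini-Hochberg adjustment).

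Of the members, the myosin II genes Myl9 and Myh9 were not called. Myl9 (ENSMUSG00000067818, chr2:156775420-156781658), the regulatory light chain of smooth muscle myosin, stood at 14.6, 13, 12.6, 13.4 and 12.8 CPM in the controls. The nlsYAP5SA mice held 9.81, 12.2, 7.97, 13.4 and 11.2 CPM. C57BL/6 mice held 14.8, 16 and 9.49 CPM, a wider span than the controls. Myl9 was the only member with a lower mean in nlsYAP5SA, and 4 of 5 nlsYAP5SA mice were below every control while replicate 4 was within their range. The log2 fold change was -0.28 (SE 0.12, 95% interval -0.55 to -0.01, adjusted p = 0.183, edgeR's quasi-likelihood test, Benjamini-Hochberg adjustment). Myh9 (ENSMUSG00000022443, chr15:77760587-77842175), the heavy chain of non-muscle myosin IIA, stood at 58.7, 56.8, 72.7, 82.7 and 74.6 CPM in the controls and at 70.2, 88.6, 60.1, 86.1 and 91.5 CPM in nlsYAP5SA. In C57BL/6 it stood at 70.8, 59.3 and 82.2 CPM. The ranges overlapped (log2 fold change 0.20, SE 0.13, 95% interval -0.08 to 0.48, adjusted p = 0.376, edgeR's quasi-likelihood test, Benjamini-Hochberg adjustment).

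Flna (ENSMUSG00000031328, chrX:74223461-74249820), which cross-links actin filaments and ties them to the membrane, stood at 68.2, 71.0, 80.5, 76.9 and 77.4 CPM in the controls and at 65.2, 90.7, 64.8, 109 and 91.3 CPM in nlsYAP5SA. In C57BL/6 it stood at 69.8, 61.6 and 91.0 CPM. Its spread was wide in nlsYAP5SA, with replicates 1 and 3 below all controls and replicates 2, 4 and 5 above them. The log2 fold change was 0.17 (SE 0.13, 95% interval -0.11 to 0.45, adjusted p = 0.457, edgeR's quasi-likelihood test, Benjamini-Hochberg adjustment).

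Within nlsYAP5SA, the same mouse tended to be low across the 10 genes. Replicate 3 was the lowest of its group for 9 of the 10, all but Tpm1, while replicate 4 was the highest for 4 and replicates 2 and 5 were the highest for 3 each. This was not particular to the 10 genes. Replicate 3 was also the lowest of its group for Gfap (648 CPM), Rgs5 (108 CPM) and Flnc (9.06 CPM), though the highest for Srf (33.9 CPM). The share over all genes was not counted. In C57BL/6, replicate 3 was the lowest of the group for 8 of the 10 and was the highest for Myh9 and Flna. Control replicate 1 was the lowest control for 4 genes and the highest for 4 others.

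Divided by the merged exon length in kilobases, the controls ranked the 10 genes as Cnn3 (27.6 ± 1.06 CPM per kb), Tpm1 (24.0 ± 0.494), Myl9 (11.4 ± 0.676), Flna (7.96 ± 0.536), Myh9 (5.35 ± 0.855), Acta2 (4.69 ± 1.23), Cnn2 (4.60 ± 0.472), Tagln (2.68 ± 0.335), Tpm2 (1.73 ± 0.285) and Cnn1 (0.138 ± 0.0625; SD, n = 5 each). Myh9, Acta2 and Cnn2 were within 1 SD of their neighbours in that order, and the other neighbours were farther apart. In nlsYAP5SA the level per kb of Acta2 was 11.0 ± 1.77, the third of the 10 after Cnn3 at 42.9 ± 3.16 and Tpm1 at 30.3 ± 0.838, although Acta2, Myl9, Flna, Cnn2 and Myh9 each lay within 1 SD of the next, down to Tagln. Cnn1 stayed at the bottom of the order at 1.01 ± 0.156 CPM per kb.

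The C57BL/6 mice show the level without transgene and without Cre. No group carried Cre without the transgene, so Cre at the Nex locus and the switched-on transgene cannot be told apart. Of the 10 genes, 0 were called between C57BL/6 and control by edgeR's quasi-likelihood test, where 0.169% of 16546 genes tested were called in either direction; 0 of the 10 had unadjusted p ≤ 0.05 and DESeq2's Wald test called 0. The median log2 fold change was 0.02 over the 10 genes and 0.00 over all genes tested. In Cnn3 all 3 C57BL/6 mice were below all 5 controls, a pattern held by 1.39% of genes tested, with a log2 fold change of -0.13 (SE 0.06, 95% interval -0.27 to 0.01). For Acta2 the log2 fold change was 0.03 (95% interval -0.46 to 0.52) and for Cnn1 it was 0.34 (95% interval -0.55 to 1.24).

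Set against C57BL/6, 5 of the 10 genes were called higher in nlsYAP5SA and 4.16% of the 16641 genes tested were. In 6 of the 10 every nlsYAP5SA mouse was above every C57BL/6 mouse, which held for 8.71% of genes tested. None of the 10 was called lower by edgeR's quasi-likelihood test, against 2.22% of all genes; 0 had unadjusted p ≤ 0.05 in that direction and DESeq2's Wald test called 0. Behind these shares are 692 genes called higher and 369 lower, which were 445 and 200 without nlsYAP5SA replicate 2, 468 and 168 without replicate 1, 721 and 241 without replicate 3, 396 and 113 without replicate 5, and 302 and 99, 460 and 121, and 987 and 770 without C57BL/6 replicate 1, 2 and 3. This comparison shares the nlsYAP5SA mice with the one against control. The log2 fold changes were 2.52 (SE 0.24) for Cnn1, 1.19 (SE 0.16) for Acta2, 0.90 (SE 0.19) for Tagln, 0.75 (SE 0.08) for Cnn3 and 0.68 (SE 0.15) for Cnn2. Their adjusted p-values were 4.0e-04, 0.00285, 0.0209, 5.3e-04 and 0.0285 in that order (edgeR's quasi-likelihood test, Benjamini-Hochberg adjustment). The Tagln call was lost without nlsYAP5SA replicate 5 (adjusted p = 0.058) or without C57BL/6 replicate 1 (adjusted p = 0.0652, edgeR's quasi-likelihood test, Benjamini-Hochberg adjustment), within a range over the alternatives from 1.7e-04 to 0.16. The Cnn2 call was lost without nlsYAP5SA replicate 1, 2, 4 or 5 or any of the 3 C57BL/6 mice, with adjusted p-values of 0.0607, 0.0569, 0.0531, 0.0715, 0.0842, 0.0532 and 0.0504 (edgeR's quasi-likelihood test, Benjamini-Hochberg adjustment), within a range over the alternatives from 0.00108 to 0.155. Tpm1 was not called here (log2 fold change 0.24, SE 0.06, adjusted p = 0.0519, edgeR's quasi-likelihood test, Benjamini-Hochberg adjustment). It was called in 3 of 15 alternatives, and its adjusted p ran from 0.00135, by DESeq2's Wald test, to 0.438.

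**Figure D2:**
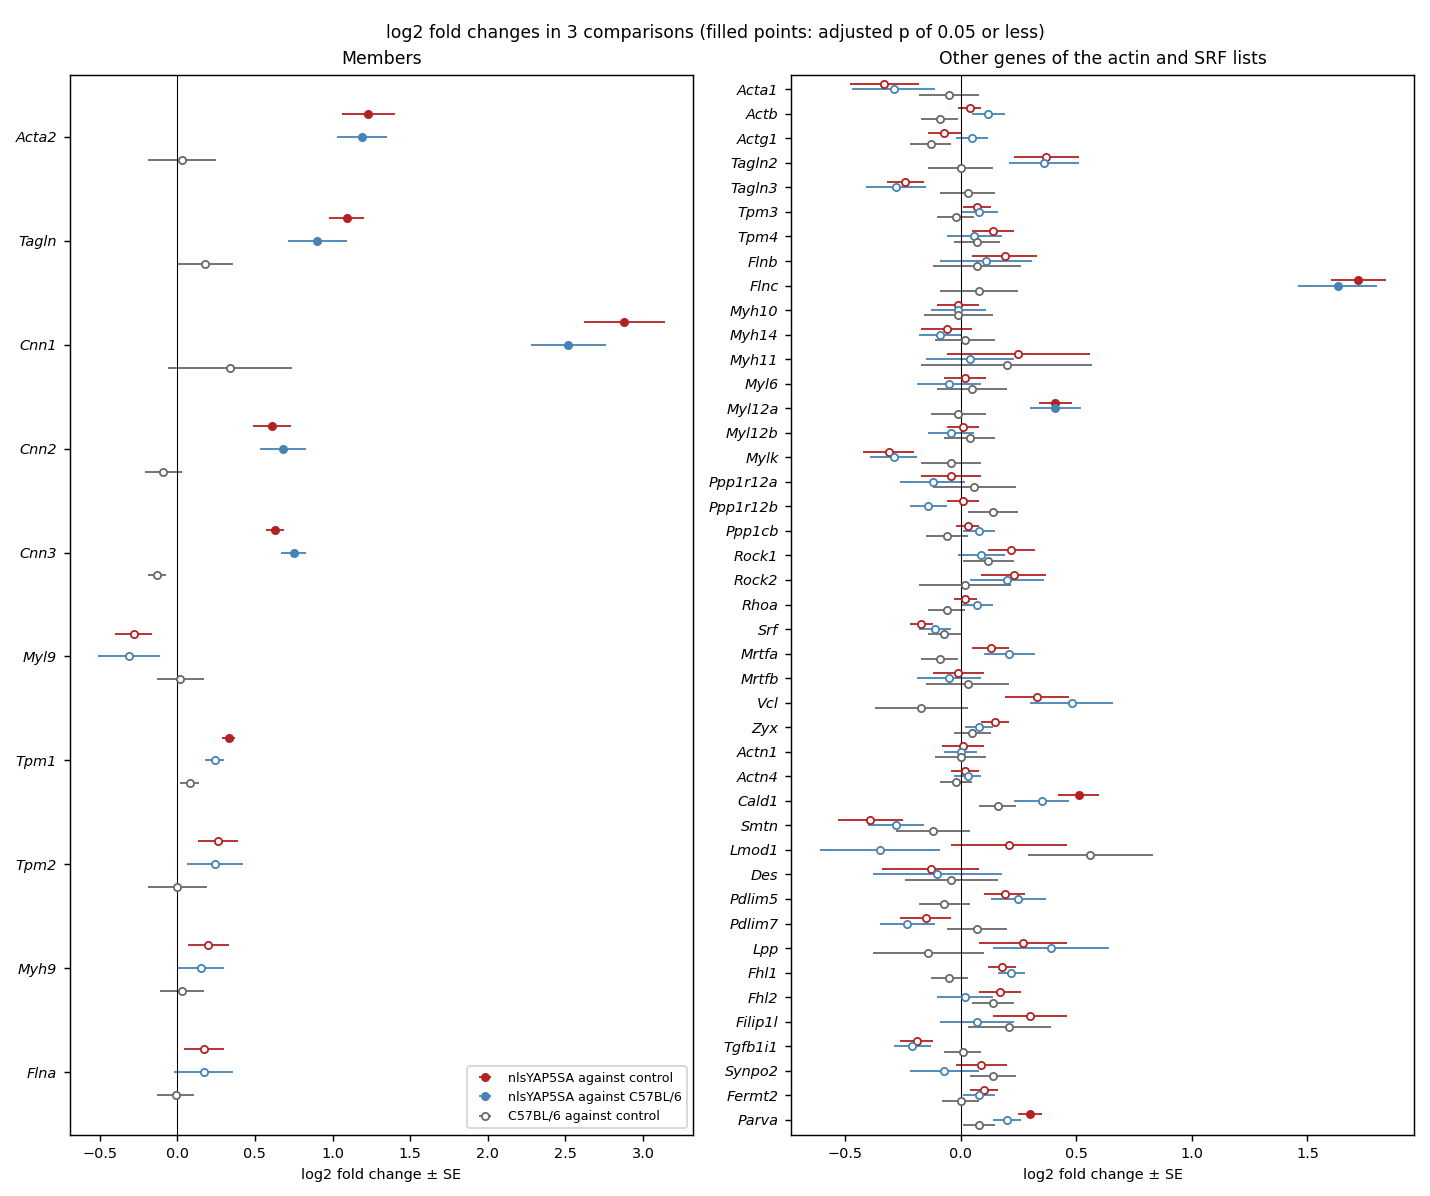
log2 fold change with SE (horizontal axis) of the 10 genes on the left and of the other actin and SRF genes on the right, in the 3 comparisons. Of those other genes, 43 were tested in nlsYAP5SA against control and 44 in each other comparison. Filled points have an adjusted p of 0.05 or less. Cnn1 stands farthest to the right on the left side, at 2.88 against control, and Flnc on the right side, at 1.72.

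Around the 10 genes, 46 further genes of the actin and SRF system were counted in 5 lists. Of the 43 tested, 4 were called higher in nlsYAP5SA against control and 0 were called lower by edgeR's quasi-likelihood test, with 6 at unadjusted p ≤ 0.05 in the lower direction and 2 called lower by DESeq2's Wald test. Over all genes tested, 7.36% were called higher and 3.44% lower. The median log2 fold change of the 43 was 0.07. Against C57BL/6, 2 of 44 tested were called higher, beside 4.16% of all genes, and between C57BL/6 and control 0 of 44 were called by edgeR's quasi-likelihood test, 0 at unadjusted p ≤ 0.05 and 0 by DESeq2's Wald test.

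Flnc, the filamin of muscle, was 1 of 6 other transgelins, tropomyosins and filamins and the only one of them called by edgeR's quasi-likelihood test; DESeq2's Wald test called 1 higher and 1 lower. It stood at 3.03, 3.09, 3.54, 3.95 and 4.11 CPM in the controls, at 12.4, 11.4, 9.06, 12.5 and 13 CPM in nlsYAP5SA and at 3.50, 3.12 and 4.56 CPM in C57BL/6. The groups were widely apart, whereas those of its relative Flna overlapped (Flnc log2 fold change 1.72, SE 0.12, adjusted p = 3.1e-06, edgeR's quasi-likelihood test, Benjamini-Hochberg adjustment); the difference between the 2 genes was not tested. Of 13 myosin II chains and regulators, Myl12a alone was called, a light chain of non-muscle myosin, at 26.8 ± 2.55 CPM in control and 35.7 ± 1.68 CPM in nlsYAP5SA (SD, n = 5 each; log2 fold change 0.41, SE 0.07). Of 18 SRF/MRTF target and actin-crosslinking genes, 2 were called: Cald1, the filament-binding caldesmon (log2 fold change 0.51, SE 0.09), and Parva, which links actin to integrins (0.30, SE 0.05). Over the mice with Y-linked reads, which leaves 2 nlsYAP5SA mice, their log2 fold changes were 0.39 for Myl12a, 0.43 for Cald1 and 0.25 for Parva and the calls were lost (adjusted p = 0.128, 0.105 and 0.175, edgeR's quasi-likelihood test, Benjamini-Hochberg adjustment). With the Y-linked covariate Cald1 was at 0.44 (adjusted p = 0.0734, edgeR's quasi-likelihood test, Benjamini-Hochberg adjustment).

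Srf and the genes of this paragraph were picked after their values were seen. Srf was not called, at 36.2 ± 2.03 CPM in control and 32.2 ± 1.27 CPM in nlsYAP5SA (SD, n = 5 each; log2 fold change -0.17, SE 0.05, adjusted p = 0.0695, edgeR's quasi-likelihood test, Benjamini-Hochberg adjustment), and it was called lower in 3 of 19 alternatives, among them without control replicate 2 (adjusted p = 0.0457; range 0.0324 to 0.684). Of the SRF cofactors tested, Mrtfa had a log2 fold change of 0.13 (SE 0.08) and Mrtfb of -0.01 (SE 0.11), neither called. Of 5 other actins, 3 were tested and 0 called by edgeR's quasi-likelihood test, 1 at unadjusted p ≤ 0.05 and 0 by DESeq2's Wald test; Actc1 and Actg2 were too low to test. The cytoplasmic actins Actb and Actg1, which form most actin in brain cells, had log2 fold changes of 0.04 (SE 0.05) and -0.07 (SE 0.07).

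Acta2, Tagln and Cnn1 also mark the muscle cells of vessels, so the rest of that marker list was read beside them. Of Myh11, Lmod1 and Des, 3 of 3 were tested and 0 called in either direction by edgeR's quasi-likelihood test, 0 at unadjusted p ≤ 0.05 and 0 by DESeq2's Wald test. Their summed level, led by Myh11, was 4.62, 4.97, 10.3, 9.40 and 8.08 CPM in the controls, 8.32, 11.2, 6.20, 7.04 and 9.18 CPM in nlsYAP5SA and 9.60, 8.67 and 7.51 CPM in C57BL/6. The groups overlapped in part, with nlsYAP5SA replicate 2 above all other mice and control replicates 1 and 2 below them. Control replicates 1 and 2, the lowest in Acta2, were also the lowest in Myh11, at 2.17 and 2.43 CPM. The Myh11 log2 fold change was 0.25 (SE 0.31, adjusted p = 0.662, edgeR's quasi-likelihood test, Benjamini-Hochberg adjustment). Leaving out those 2 controls, the lowest in both genes, had to lower the log2 fold changes of Myh11 and Acta2. Without them the log2 fold change was -0.17 for Myh11, 0.99 for Acta2 and 2.60 for Cnn1, and the last 2 were called. The part of vessel muscle cells in the levels of the 10 genes was not tested.

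The CPM ratio of Acta2 to Myh11 within a mouse was 3.70, 2.87, 1.78, 1.98 and 2.11 in the controls, 4.28, 3.73, 4.63, 5.34 and 4.10 in nlsYAP5SA and 2.13, 2.06 and 1.66 in C57BL/6. All nlsYAP5SA mice were above all others, with control replicate 1 closest to them. The ratio of Tagln to Myh11 was 2.04, 2, 0.756, 0.958 and 1.12 in the controls, 2.03, 1.54, 2.38, 2.60 and 1.96 in nlsYAP5SA and 1.18, 1.36 and 0.832 in C57BL/6. Here control replicates 1 and 2 were within the nlsYAP5SA range, so the groups overlapped. The ratio of Cnn1 to Myh11 was 0.0755, 0.145, 0.0389, 0.0764 and 0.115 in the controls, 0.513, 0.439, 0.533, 0.611 and 0.436 in nlsYAP5SA and 0.0866, 0.107 and 0.072 in C57BL/6. For Cnn1 the nlsYAP5SA mice were apart from the rest.

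Of 8 pericyte markers, 4 were called lower in nlsYAP5SA against control and 0 higher by edgeR's quasi-likelihood test (0 higher at unadjusted p ≤ 0.05 and 0 by DESeq2's Wald test). The 4 were Rgs5, Vtn, Higd1b and Kcnj8, and the calls of Higd1b, Kcnj8, Rgs5 and Vtn held in 5, 8, 17 and 19 of 19 alternatives. The log2 fold change of Rgs5 was -0.58 (SE 0.13) and, in the 2 fits that used Y-linked reads, -0.60 and -0.62 (SE 0.18 each), where its call was lost (adjusted p = 0.125 and 0.18, edgeR's quasi-likelihood test, Benjamini-Hochberg adjustment). Higd1b lost it, among others, without control replicate 1, 3, 4 or 5 or nlsYAP5SA replicate 1, 2, 3 or 5 (adjusted p 0.0586 to 0.0938), and Kcnj8 without control replicate 1, 2 or 4 or nlsYAP5SA replicate 1, 2, 3 or 5 (0.0545 to 0.088, edgeR's quasi-likelihood test, Benjamini-Hochberg adjustment). The summed level, led by Rgs5, was 323, 365, 389, 387 and 383 CPM in the controls, 236, 303, 208, 318 and 294 CPM in nlsYAP5SA and 406, 369 and 374 CPM in C57BL/6. The nlsYAP5SA mice were thus all below the other mice, in the direction opposite to Acta2. Of 6 endothelial markers, 2 were called lower and 0 higher by edgeR's quasi-likelihood test, Cldn5 in 18 and Cdh5 in 12 of 19 alternatives; 2 were higher at unadjusted p ≤ 0.05, and DESeq2's Wald test called 1 higher and 3 lower. The most abundant was Cldn5 in control and C57BL/6 and Flt1 in nlsYAP5SA, and the summed level ran from 162 to 189 CPM in control and from 151 to 186 CPM in nlsYAP5SA. Cdh5 lost its call without control replicate 3, 4 or 5 or nlsYAP5SA replicate 1 or 2 (adjusted p 0.0519 to 0.0839, edgeR's quasi-likelihood test, Benjamini-Hochberg adjustment). The parts of pericytes and of endothelial cells in the levels of the 10 genes were not tested.

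Of 6 markers of vascular and meningeal fibroblasts, 1 was called higher (Col1a2, in 12 of 19 alternatives) and 1 lower (Lum, in 16). Col1a2 lost its call without control replicate 2 or nlsYAP5SA replicate 1, 2 or 5 (adjusted p 0.0506 to 0.064, edgeR's quasi-likelihood test, Benjamini-Hochberg adjustment). Their summed level, led by Col1a2, was 118, 128, 162, 187 and 171 CPM in the controls, 218, 205, 146, 215 and 234 CPM in nlsYAP5SA and 193, 176 and 162 CPM in C57BL/6. Here nlsYAP5SA replicate 3 was within the control range and the other 4 nlsYAP5SA mice were above it, and it was also the mouse with the lowest Acta2 of its group. The part of fibroblasts in the levels of the 10 genes was not tested.

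**Figure D3:**
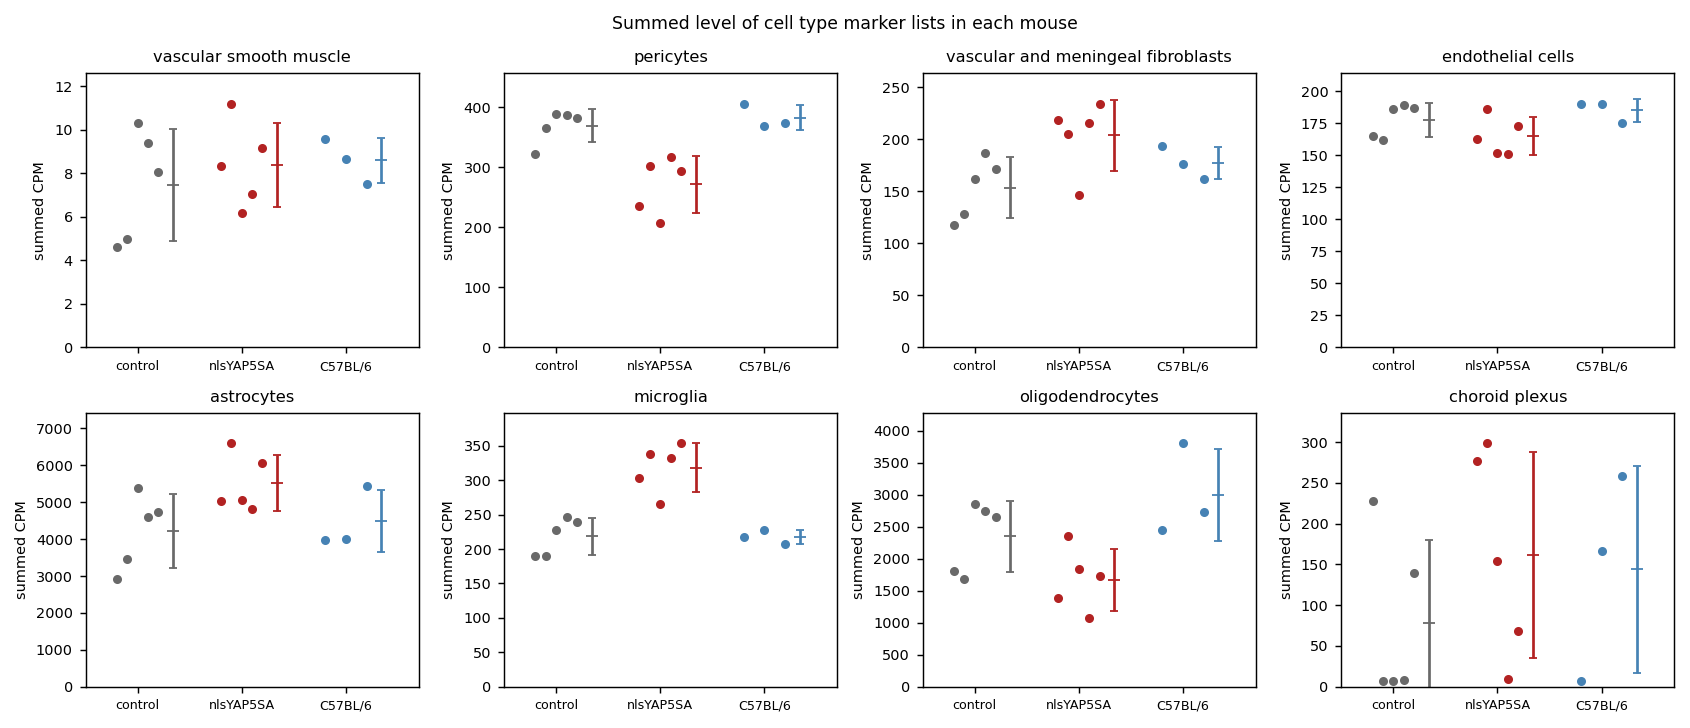
Summed CPM of 8 cell type marker lists (vertical axes, from 0) in each control, nlsYAP5SA and C57BL/6 mouse; bars are the mean and SD, and the lower end of a bar may be below 0 and hidden. Microglia markers lie higher and pericyte markers lower in all nlsYAP5SA mice than in all others, and smooth muscle markers overlap.

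Microglia markers moved in the direction of the 6 genes called higher, with 4 of 5 called higher and 0 lower by edgeR's quasi-likelihood test (0 lower at unadjusted p ≤ 0.05 and 0 by DESeq2's Wald test); Csf1r was the most abundant of the 5. Csf1r was called in 19, Cx3cr1 and Aif1 in 18 and Tmem119 in 10 of 19 alternatives, with Tmem119 not called without control replicate 1, 2 or 3 or nlsYAP5SA replicate 2, 4 or 5 (adjusted p 0.0527 to 0.0862, edgeR's quasi-likelihood test, Benjamini-Hochberg adjustment). The summed microglia level was 190.5, 189.6, 227, 246 and 239 CPM in the controls, 303, 338, 265, 332 and 354 CPM in nlsYAP5SA and 218, 227 and 207 CPM in C57BL/6, without overlap between nlsYAP5SA and the rest. Of 6 astrocyte markers, 3 were called higher and 0 lower by edgeR's quasi-likelihood test (0 lower at unadjusted p ≤ 0.05 and 0 by DESeq2's Wald test). Gfap was called in 19 of 19 alternatives, at 181 ± 8.51 CPM in control and 754 ± 73.5 CPM in nlsYAP5SA (SD, n = 5 each). Its log2 fold change was 2.06 (SE 0.07). The other 2, Gja1 and Slc1a3, were each called in 11 of 19 alternatives. Gja1 and Slc1a3 lost the call, among others, without control replicate 2 or nlsYAP5SA replicate 1, 2 or 5 (adjusted p 0.0524 to 0.0694, edgeR's quasi-likelihood test, Benjamini-Hochberg adjustment). Their summed level, led by Slc1a2, was 2911, 3464, 5377, 4595 and 4731 CPM in the controls, 5035, 6604, 5071, 4829 and 6063 CPM in nlsYAP5SA and 3987, 4003 and 5448 CPM in C57BL/6, with overlap. The parts of microglia and of astrocytes in the levels of the 10 genes were not tested.

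Of 4 choroid plexus markers, 1 was called higher (Folr1, in 17 of 19 alternatives) and 0 lower by edgeR's quasi-likelihood test (0 lower at unadjusted p ≤ 0.05 and 0 by DESeq2's Wald test), and the most abundant, Ttr, swung from 0.783 to 276 CPM among mice of all groups, with control replicate 1 at 217 and control replicate 2 at 0.822 CPM. Of 4 ependymal markers, 1 was called higher (Foxj1, in 17 of 19 alternatives) and 0 lower by edgeR's quasi-likelihood test (0 lower at unadjusted p ≤ 0.05 and 0 by DESeq2's Wald test), with a summed level, led by Foxj1, of 22.6, 18.6, 13.6, 11.8 and 11.7 CPM in the controls, 23.7, 24.2, 21.7, 20.8 and 23.5 CPM in nlsYAP5SA and 15.8, 18.0 and 17.0 CPM in C57BL/6. Of 4 neuronal markers and 4 oligodendrocyte markers, 0 were called against control by edgeR's quasi-likelihood test, 1 and 3 had unadjusted p ≤ 0.05, and DESeq2's Wald test called 0; Syt1 and Mbp were the most abundant. Against C57BL/6, 2 of the 4 oligodendrocyte markers were called lower (Mag and Mog, with 3 by DESeq2's Wald test). All 4 were lower in every nlsYAP5SA mouse than in every C57BL/6 mouse, which held for 6.47% of genes tested. Of the neuronal markers 0 were called against C57BL/6 by edgeR's quasi-likelihood test, 3 were lower at unadjusted p ≤ 0.05 and DESeq2's Wald test called 1 lower. The neuronal sum was 2826 to 3367 CPM in control and 2633 to 3125 CPM in nlsYAP5SA, and the oligodendrocyte sum was 1682 to 2852 CPM and 1067 to 2353 CPM. Of 3 red blood cell markers 0 were called by edgeR's quasi-likelihood test, 0 at unadjusted p ≤ 0.05 and 0 by DESeq2's Wald test, with Hbb-bs the most abundant and a sum of 155 to 351 CPM in control and 128 to 236 CPM in nlsYAP5SA. Of 5 skeletal muscle markers, 2 were tested and 1, Myh1, was called higher, a call that held in 7 of 19 alternatives. Myh1 stood at 0.402 ± 0.167 CPM in control and 0.853 ± 0.201 CPM in nlsYAP5SA (SD, n = 5 each). Acta1, the most abundant and also tested, was not called, with a log2 fold change of -0.33 (SE 0.15). The summed level was 5.47 ± 0.431 CPM in control and 4.98 ± 1.17 CPM in nlsYAP5SA (SD, n = 5 each). Ckm reached at most 6 counts in any control and 4 in any nlsYAP5SA mouse. Myh1 lost its call without any 1 of control replicates 1 to 4 or nlsYAP5SA replicates 1, 3 and 5 (adjusted p 0.0552 to 0.0788, edgeR's quasi-likelihood test, Benjamini-Hochberg adjustment). The part of these cell types in the levels of the 10 genes was not tested.

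When Y-linked reads were taken into account, many marker calls were lost while every one of these fold changes kept its direction. With the covariate the calls lost were Rgs5, Higd1b, Kcnj8, Col1a2, Lum, Cdh5, Slc1a3, Gja1, Foxj1, Folr1, Tmem119 and Myh1 (adjusted p 0.122 to 0.449, edgeR's quasi-likelihood test, Benjamini-Hochberg adjustment). Over the mice with Y-linked reads the same 12 and Cldn5, Cx3cr1 and Aif1 were lost (adjusted p 0.0553 to 0.665, edgeR's quasi-likelihood test, Benjamini-Hochberg adjustment). The log2 fold changes in the fit of all 10 mice, with the covariate and over the mice with Y-linked reads were -0.50, -0.53 and -0.53 for Kcnj8, -0.45, -0.51 and -0.53 for Cdh5, and 1.09, 1.23 and 1.21 for Myh1. They were nearer 0 in the last 2 fits for Foxj1 (0.78, 0.70 and 0.70), Higd1b (-0.64, -0.48 and -0.47), Col1a2 (0.62, 0.42 and 0.40), Lum (-0.83, -0.69 and -0.69), Slc1a3 (0.31, 0.22 and 0.20), Gja1 (0.36, 0.20 and 0.18), Folr1 (2.2, 1.93 and 1.94) and Tmem119 (0.36, 0.33 and 0.32). Over the mice with Y-linked reads Cldn5 was at -0.40, Cx3cr1 at 0.59 and Aif1 at 0.84, beside -0.44, 0.68 and 0.84 in all 10 mice.

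For each of Acta2, Cnn1 and Cnn3, the 3 genes with the nearest profile over the 13 mice were sought in the genes that averaged 50 counts or more, by the root mean square difference of log2 CPM (pseudocount 0.5) from the control mean. For Acta2 they were Tlr7 (0.162), Col4a6 (0.185) and Ogn (0.192), out of 13451 genes compared. For Cnn1 they were Loxl2 (0.181), Prss23 (0.189) and Gfap (0.196), out of 13452. The pseudocount was above the Cnn1 control mean of 0.377 CPM and so shrank the Cnn1 profile. Their log2 fold changes against control, 2.13, 2.10 and 2.06 in that order, were below the 2.88 of Cnn1. For Cnn3 the nearest genes were Il4ra (0.0916), Cd53 (0.112) and Ctsz (0.115). These genes were picked for their profile over the same mice, so their fold changes are no further support; against control the log2 fold change was 1.26 for Tlr7, 2.13 for Loxl2 and 0.68 for Il4ra. Over the mice with Y-linked reads Tlr7 was at 0.93, Col4a6 at 1.01 and Il4ra at 0.61, and their calls were lost (adjusted p = 0.086, 0.123 and 0.0865, edgeR's quasi-likelihood test, Benjamini-Hochberg adjustment).

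Promoter sequence is shown since several of the 10 genes moved together and their class is known for SRF sites. Of the 10 genes, 9 had an entry in the RefSeq promoter table (GRCm38.p6), and Tagln had none. In the 250 bases before the RefSeq start, the CArG box, the 10-letter SRF motif, was found in 2 of the 9 genes, Cnn2 and Myl9, and in 1.47% of 32851 promoter windows of the same length. The TEAD core GGAATG, on either strand, was found in 3 of the 9, Acta2, Tpm1 and Flna, and in 12.6% of the windows. In Acta2 and Tpm1 the match lay in a GENCODE exon, since that annotation starts the gene farther upstream. GENCODE also starts Flna farther upstream, so its match lay inside the annotated gene, though outside its exons. Neither motif was in the window of Cnn1, the gene with the largest fold change, or of Cnn3, Tpm2 and Myh9. A match is a description, not a site, and no match says only that these letters are not in this window. In Cnn2 the CArG box began 56 bases before the RefSeq start and in Myl9 161 bases before it. To set a gene called higher beside one that was not, the upstream sequence is given for Cnn2 (chr10:79988350-79988583, + strand) and Myl9 (chr2:156775214-156775419, + strand), with that of Cnn1 (chr9:22099003-22099215, + strand), all on GRCm38.p6. They run 5′ to 3′ and end before the first annotated exon base; capitals mark the CArG box.
Cnn2: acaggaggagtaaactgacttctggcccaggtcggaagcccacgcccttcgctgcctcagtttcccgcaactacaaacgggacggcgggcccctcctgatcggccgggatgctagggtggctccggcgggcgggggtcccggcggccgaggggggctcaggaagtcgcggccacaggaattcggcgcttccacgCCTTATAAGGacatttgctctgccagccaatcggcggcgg
Myl9: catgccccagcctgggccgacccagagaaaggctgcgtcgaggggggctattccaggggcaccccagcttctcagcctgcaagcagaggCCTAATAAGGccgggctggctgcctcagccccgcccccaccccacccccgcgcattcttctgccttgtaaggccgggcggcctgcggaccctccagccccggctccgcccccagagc
Cnn1: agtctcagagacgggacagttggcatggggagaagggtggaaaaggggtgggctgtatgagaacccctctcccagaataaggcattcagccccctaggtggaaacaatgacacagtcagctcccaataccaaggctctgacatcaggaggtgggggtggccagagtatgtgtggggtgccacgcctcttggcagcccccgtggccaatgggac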

How the data were processed

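The files deposited by the authors hold RSEM estimated counts per gene. As the study's methods and the submitters' processing notes give it, right-hemisphere RNA was made into libraries with the KAPA mRNA HyperPrep kit, sequenced on an Illumina HiSeq, trimmed with cutadapt 1.5, aligned with STAR to GRCm38 and counted with RSEM 1.3.0; the strand setting was not given in the sources used here. Estimated counts (12.4% to 13.3% of values per mouse not whole) were rounded and tested with edgeR 4.0.16 in R 4.3.3: filterByExpr (minimum count 10, minimum total 15), TMM scaling, glmQLFit and glmQLFTest, Benjamini-Hochberg over all genes tested, called at 0.05. DESeq2 1.42.0 gave a Wald test as an alternative; other alternatives were scaling, no filter, all 13 mice, the replicate number, a Y-linked covariate and leaving out each mouse. The fits were tested on simulated data. CPM used TMM over 13 mice; lengths and positions are from GENCODE M21. Intervals are 95%. Mice are separate animals; no replicate pair agreed within sampling noise. Named genes were the 10 members, Yap1, Neurod6, called genes of 5 actin and SRF lists and nearest profiles; marker genes and Srf were named after their values were seen. Of the planned markers, 1 is not reported here and was left out of its list. Sequences are from RefSeq. The members and lists were chosen with earlier results of these data known.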

Additional observations from a re-analysis of the deposited data

Results flagged for a closer look

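Of 100 sets of 5 mice examined for a mouse far from the other 4, 3 stood out, where chance gives about 1 in 20. Rgs5 was 184 CPM in control replicate 1 and 226 to 235 CPM in the other controls. Des was 1.35 CPM in control replicate 1 and 1.75 to 1.88 CPM in the other controls. Lmod1 was 1.79 CPM in nlsYAP5SA replicate 2 and 0.949 to 1.17 CPM in the other nlsYAP5SA mice.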

How the results depend on the processing

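Log2 fold changes named for nlsYAP5SA against control were recomputed under alternatives. Those of Mrtfa, Mrtfb, Actb, Actg1, Acta1, Pcsk7 and Gm42928 are not counted here. Of the values counted, 718 kept direction and call, 112 lost the call, 3 gained it and 3 turned direction. The 3 were Myh11, at -0.05 with the Y-linked covariate, -0.09 over the mice with Y-linked reads and -0.17 without control replicates 1 and 2; the last 2 alternatives were added after seeing the data. Genes called, 1761 in all, were 539 with the covariate and 334 over the mice with Y-linked reads, a fit of fewer mice; the cause was not tested. The 28 called between C57BL/6 and control were 59 by DESeq2's Wald test, 44 in the fit of all 13 mice and 15 with the replicate block. In that comparison Myl9 was -0.01 with library size alone, -0.03 with the block and -0.13 with the covariate; Tpm2 was -0.03 with library size alone, -0.01 without a filter, 0.00 by the Wald test and -0.13 with the covariate; and Flna was 0.10 with the covariate. With each mouse left out in turn, Acta2 ran from -0.09 to 0.16, Cnn2 from -0.15 to 0.01, Myl9 from -0.13 to 0.20, Tpm2 from -0.14 to 0.18, Myh9 from -0.10 to 0.15 and Flna from -0.20 to 0.11. Between nlsYAP5SA and C57BL/6, 1061 genes were called, 401 to 1757 with each mouse left out (fewest without C57BL/6 replicate 1, most without replicate 3), and 3 to 5 of the 10 members higher (3 without nlsYAP5SA replicate 5 or C57BL/6 replicate 1). With the replicate block 26 genes and 0 of the 10 were called, and Flna was -0.02. Nothing recorded ties mice that share a number, and their correlations ran from -0.315 to 0.486, so the main fits did not pair the mice.

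The fewest counts limit Cnn1, with 4 to 13 in the controls. Groups of 5, 5 and 3 mice, the uneven spread of Y-linked reads, mixed tissue and unrecorded litter and sex limit these comparisons. With Y-linked reads in all 5 controls but only in nlsYAP5SA replicates 3 and 4, sex was partly confounded with genotype. No group carried Cre without the transgene.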
